A study of Mus musculus with 10 samples.

Results

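The genes described here encode the basal machinery that transcribes nuclear genes: subunits of the Mediator complex, subunits of RNA polymerases I, II and III, the TATA-binding-protein-associated factors (TAFs) and the numbered general transcription factors. They were chosen by name, as every symbol in the deposited table of RNA metabolic rates that starts with Med, Taf, Polr1, Polr2, Polr3, Gtf2 or Gtf3, with a digit after Med or Taf. The rule found 91 of 8590 genes. They comprise 26 Mediator subunits, 25 polymerase subunits (4 named for polymerase I, 12 for II and 9 for III), 19 TAFs, 14 general factors of polymerase II and 7 subunits of TFIIIA and TFIIIC. Of the TAFs, 13 belong to TFIID and 3 to SL1, the promoter selectivity factor of polymerase I. Of the general factors, 12 belong to TFIIA, TFIIB, TFIIE, TFIIF or TFIIH, and 2 are relatives of TFII-I. Med14, the Mediator scaffold, and Gtf2i were not among the genes of the rate table.

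RNA polymerase II makes messenger RNA, polymerase I makes the large ribosomal RNA precursor and polymerase III makes transfer RNA, 5S ribosomal RNA and other short RNAs. TFIID and the other general factors place polymerase II at a promoter, Mediator relays signals from enhancer-bound factors to it, SL1 serves polymerase I, and TFIIIA and TFIIIC recruit polymerase III through TFIIIB. A few small subunits, Polr2e, Polr2f, Polr2h, Polr2k and Polr2l, are built into all of these polymerases, and Polr1c and Polr1d into I and III.

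The study labelled new RNA in cortical neurons of wild-type and Fmr1-KO mice; Fmr1 encodes FMRP, an RNA-binding protein lost in fragile X syndrome. Both genotypes carried the strain label FVB.129P2-Pde6b+ Tyrc-ch/AntJ, came from embryonic day 18 cortices and were grown for 14 days in vitro. Cells were given 200 µM 5-ethynyluridine, which enters new transcripts and allows their pull-down, for 20 or 60 min. Each genotype had 1 library per labelling time, so n = 2 per genotype throughout, and 1 rate of synthesis, processing (intron removal) and degradation per gene and library. Each genotype also had 2 input libraries and 1 unlabelled pull-down, which have no rates of their own. The comparison asks how loss of Fmr1 alters these rates. The labels do not say how many animals or cultures stood behind a library, and the p-values measure only the spread between libraries. For degradation and processing rates that spread leaves out the RNA level, as explained below. Rates are printed in the units of the deposited table, whose time unit is not stated, and without read counts the depth behind them is unknown.

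Facts of the whole table bear on what follows. The targeted gene, Fmr1, had degradation rates of 0.0774 and 0.0672 in the wild-type libraries, against 2.58 and 2.66 in the knockout ones, and its synthesis rate was not lower in the knockout (0.810 and 0.692 against 2.06 and 1.56), so new Fmr1 RNA was listed in both knockout libraries; its implied RNA level (explained below) was lower in the knockout, with a log2 change of -1.62. Of the marker lists, 3 of 11 neuronal, 3 of 7 astrocyte, 5 of 8 oligodendrocyte lineage, 0 of 6 microglial and 2 of 2 dividing-cell genes were among the genes of the table. The neuronal marker Rbfox3 had a synthesis rate in all 4 libraries, from 0.844 to 2.77, as did the astrocyte marker Aldh1l1 (1.11 to 2.76) and the oligodendrocyte lineage marker Olig2 (12.6 to 20.2). Gad2, Aqp4, Pdgfra, Sox10 and the dividing-cell genes Mki67 and Top2a had synthesis rates in wild type and none in the knockout, Gja1 and Mbp lacked a knockout rate at one labelling time, and Nefl and Cnp had none at all. The part of glial or dividing cells in the rates below was not tested.

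Promoters of 79 members were matched in RefSeq (build GRCm38.p6), each from 250 bases before to 50 bases after the annotated start. Those of Polr2a, the largest subunit of polymerase II, and of Polr2j and Polr3c, subunits whose degradation rates rose, are printed 5′ to 3′ because these genes recur in the results. Capitals mark matches on either strand. The TATA box was searched as TATAAA. The GC box, which Sp-family factors bind, was searched as GGGCGG. The motif of the ETS factor family was taken as CCGGAAG. The box bound by the factor NF-Y was taken as CCAAT, and the motif of the factor YY1 was searched as AAGATGGC. None of these motifs contains another.
Polr2a, chr11:69758584-69758883, minus strand: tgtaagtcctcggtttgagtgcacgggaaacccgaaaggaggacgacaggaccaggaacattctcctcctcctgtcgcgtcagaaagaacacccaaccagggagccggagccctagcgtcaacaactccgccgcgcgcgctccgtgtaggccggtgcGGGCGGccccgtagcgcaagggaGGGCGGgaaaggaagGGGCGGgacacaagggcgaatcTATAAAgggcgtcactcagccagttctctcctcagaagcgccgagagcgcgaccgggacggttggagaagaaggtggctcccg
Polr2j, chr5:136116441-136116740, plus strand: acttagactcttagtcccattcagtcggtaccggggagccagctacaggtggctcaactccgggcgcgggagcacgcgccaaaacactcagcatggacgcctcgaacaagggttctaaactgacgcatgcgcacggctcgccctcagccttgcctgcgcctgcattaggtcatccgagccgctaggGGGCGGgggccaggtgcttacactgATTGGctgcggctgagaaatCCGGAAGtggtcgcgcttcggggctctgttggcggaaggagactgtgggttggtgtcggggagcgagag
Polr3c, chr3:96727390-96727689, minus strand: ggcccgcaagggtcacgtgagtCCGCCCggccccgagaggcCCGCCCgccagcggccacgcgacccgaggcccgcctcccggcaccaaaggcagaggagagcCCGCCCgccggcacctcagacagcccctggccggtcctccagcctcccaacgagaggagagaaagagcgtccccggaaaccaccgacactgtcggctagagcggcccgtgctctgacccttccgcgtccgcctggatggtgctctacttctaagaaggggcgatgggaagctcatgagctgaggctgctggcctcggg
The Polr2a window holds GC boxes and TATAAA, the Polr2j window a GC box, the ETS motif and CCAAT on the minus strand, and the Polr3c window GC boxes on the opposite strand. TATAAA was found in 15.2% of the members' promoters and in 5.84% of the 6677 promoters of genes in the rate table (14.2% of all 27025 promoters). The ETS motif stood in 31.6% of the members' promoters against 20.0% in the rate table, the YY1 motif in 10.1% against 5.54%, the GC box in 60.8% against 68.5%, and CCAAT in 34.2% against 38.6%. The NRF1 motif, searched on both strands as its palindromic consensus, matched 0 of 79 member promoters and 2.29% of those in the rate table. A match here describes letters, not binding.

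The members had shorter genes than the table as a whole. In GENCODE M21 their median gene length was 16086 bp and their median transcript 2406 nt, against 27524 bp and 3193 nt for all 8319 genes with a model. Median exon number was 8 against 9, and all members had an intron. Exons of 38 members overlapped another gene, 6 of them on the same strand, and the labels do not say whether counting used strand. Of the genes called for degradation rate below, Taf11 overlaps Anks1, Polr2j overlaps Lrwd1, Taf1c overlaps Dnaaf1, Polr3gl overlaps Gm16253, Polr1a overlaps Gm26628 and Taf3 overlaps C630004M23Rik and Gm13262, each on the opposite strand, so that reads of the partners cannot be told apart if strand was not used. Med12 (with Gm21986), Med24 (with Gm22059) and Gtf3c2 (with Gm29609) overlap a gene on the same strand, where strand would not separate the reads.

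Rates were missing unevenly between genotypes. All 4 degradation rates above 0 were listed for 57 members (62.6%; 66.5% of all genes). Another 18 had both wild-type rates and none in the knockout, which is 22.2% of the 81 members with both wild-type rates, near the 19.5% of all genes. They include Polr1b and Polr3b, the second largest subunits of polymerases I and III, Taf1, the largest TFIID subunit, and the kinase-module subunit Med12l. The others were Gtf2f1 and Gtf2f2 (both TFIIF subunits), Gtf2h3, Gtf3c3, Med8, Med21, Polr1d, Polr2c, Polr2f, Polr2g, Polr3f, Taf2, Taf9b and Taf12. The converse held for Med11, Med19, Polr2h and Taf7, 4 of 62 members (6.45%; 2.84% of all genes), and Gtf2h4 and Taf9 had no rate at all. None of these genes entered the tests below, and a missing rate does not show a missing transcript.

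Over the 81 members with both wild-type rates, the median degradation rate (geometric mean of both times) was 0.134, against 0.110 for all 7914 genes with both. The highest medians were those of the Mediator head (0.295, 4 genes), the TAFs outside TFIID and SL1 (0.245, 2 genes), the Mediator middle module (0.237, 8 genes) and the TFIIA to TFIIH factors (0.215, 11 genes). The lowest were those of the Mediator tail (0.050, 6 genes), the TFII-I relatives (0.0914, 2 genes) and the kinase module (0.0936, 4 genes). These medians are descriptions of single libraries per time and were not tested.

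Med26, a Mediator subunit linked to elongation factors, had the highest wild-type degradation rate of the members, 0.815 at 20 min and 0.946 at 60 min. Gtf2a1, the large TFIIA subunit, followed with 0.491 and 0.705, and Med7, a middle-module subunit, with 0.486 and 0.606. The values of Gtf2a1 and Med7 overlapped, and Med26 lay above both at both times. At the other end, Med12, which activates the Mediator kinase, had rates of 0.0605 and 0.0118, the tail subunit Med24 0.0529 and 0.0175, and Polr3gl, a polymerase III subunit, 0.0795 and 0.0140. For these slow transcripts the labelling times differed more than the genes did, so their order is not resolved. Med26 (45.4) and Polr2a (48.1) also had the highest processing rates as geometric means, followed by Gtf2e1 of TFIIE (33.7), while Polr3c (0.144), Polr3gl (0.508) and Gtf2a1 (0.513) had the lowest. Synthesis rates ran from 0.0902 for Polr3gl and 0.0966 for Med12 to 3.37 for Med10 and 5.00 for Med26; whether they are scaled for transcript length is not stated, so only their listed values are given.

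In the knockout the deposited degradation rates of 7 of 14 polymerase subunits, 3 of 9 TAFs and 1 of 6 TFIIIA and TFIIIC genes were higher, while no Mediator subunit or general factor of polymerase II passed the test. Of 57 members tested, 11 rose and 0 fell at an adjusted p under 0.05 (limma, Benjamini-Hochberg over all genes). That is 19.3% of the members, beside 23.1% of all 5716 genes tested (20.5% higher and 2.57% lower), so the members as a whole were not called more often than other genes. Their median log2 change was 0.77 (20 min: 0.57, 60 min: 0.85), beside 0.65 for all genes. An unadjusted p under 0.05 was reached by 19 members (33.3%; background 43.1%), and 36 were higher at both labelling times (background 62.1%) and 12 lower at both (background 26.2%). Both knockout rates lay above both wild-type rates in 32 members (56.1%; background 52.6%) and below both in 5 (8.77%; background 16.5%), and the groups overlapped in 20. With labelling time as a block, 22 members were called, 20 higher and 2 lower, and all 11 were among them (background 48% called, 38.2% higher and 9.76% lower).

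The calls depended on how libraries were scaled, and each genotype rests on 2 libraries. Median-centring of each library, which moved the median change of all genes from 0.65 to -0.20, left 0 members called by limma (background 1.61%, 0.56% higher and 1.05% lower), with 19 at an unadjusted p under 0.05. Quantile normalization left 3, Gtf3c1 and Taf11 higher and Med7 lower (background 10.4%, 6.3% higher and 4.13% lower). Block and centring together gave 15 calls, 9 higher and 6 lower (background 36.2%, 13.9% higher and 22.4% lower). A fit without 1 library leaves 1 rate in a genotype, so only effect sizes are given for it. The median change of all genes was 0.69 without the wild-type 60 min library and 0.63 without the wild-type 20 min one. It was 0.66 without the knockout 20 min library and 0.74 without the knockout 60 min one. The authors' deposited table of differences called 16 of 63 members, 14 of them higher (36.3% of all its genes were called), and all 11 were among them. Its falls were Med7 and Gtf2a2, the small TFIIA subunit.

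**Figure D1:**
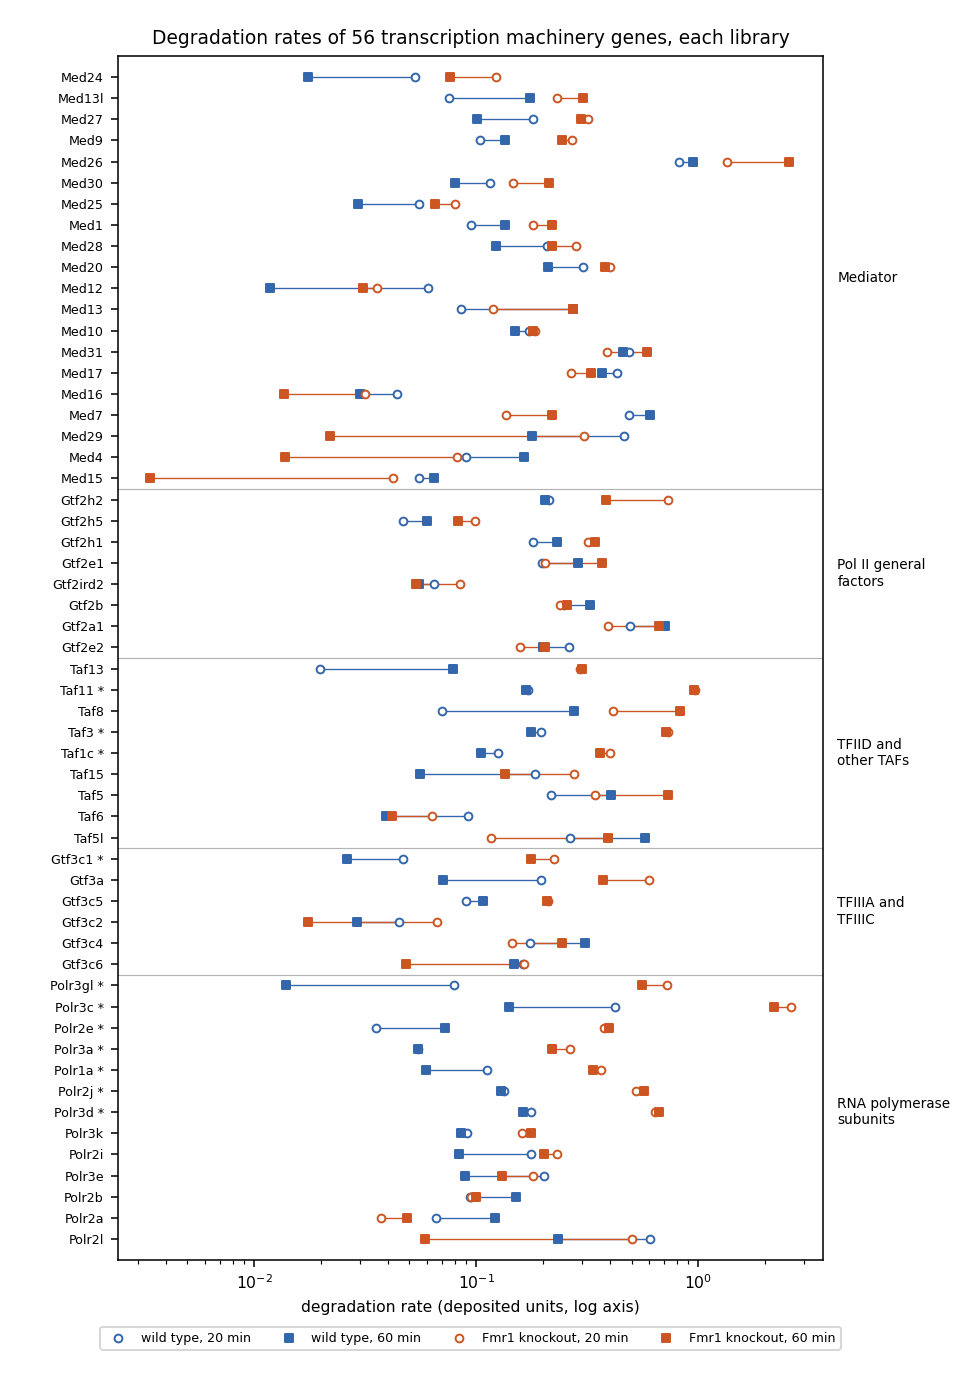
Degradation rate (x axis, log scale, deposited units) of 56 members with all 4 rates, grouped by complex on the y axis; blue is wild type, orange Fmr1 knockout, open circles 20 min, filled squares 60 min, and a line joins the labelling times of a genotype. Asterisks mark the 11 members called by limma, in which both knockout rates lie to the right of both wild-type rates.

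Polymerase subunits held 7 of the 11 calls, from 14 tested, and 4 of these were among the 7 tested subunits named for polymerase III, whose median change was 1.95. Over all genes 20.5% were called higher, and the median change was 0.65. Polr3gl, an alternative form of the subunit Polr3g, had rates of 0.0795 and 0.0140 in wild type (20 and 60 min) and 0.723 and 0.555 in the knockout. Its knockout rates were both above the wild-type ones, and the wild-type libraries themselves differed several-fold. The log2 change was 4.25 ± 0.91 (SE, n = 2 per genotype; limma adjusted p = 0.0415). Polr3c, which sits in the same polymerase III subcomplex, had 0.420 and 0.140 in the wild-type libraries, against 2.61 and 2.19 in the knockout ones. The groups did not overlap, and the change was 3.30 ± 0.63 (adjusted p = 0.0330, limma). The genes are neighbours on chromosome 3, Polr3gl at chr3:96577872-96594181 and Polr3c at chr3:96711490-96727628 (GRCm38, both on the minus strand), separated by 117308 bp.

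Polr3a, the largest polymerase III subunit, had the same wild-type rate at both times, 0.0546 and 0.0545, and 0.263 and 0.220 in the knockout. Its change was 2.14 ± 0.32 (limma adjusted p = 0.0246). Polr3d, another polymerase III subunit, went from 0.176 and 0.163 to 0.637 and 0.668, a change of 1.95 ± 0.31 (limma adjusted p = 0.0267). In both genes the difference between genotypes was far larger than that between labelling times, which share 1 implied RNA level per genotype (explained below). Polr3k (0.93) and Polr3e (0.19), further polymerase III subunits, had positive changes that did not pass the test. The other polymerase II subunits tested, Polr2i (0.84) and Polr2l (-1.13), did not pass either.

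Polr2e, the subunit common to all nuclear RNA polymerases, had rates of 0.0353 and 0.0726 in the wild-type libraries, against 0.376 and 0.398 in the knockout ones. Its change was 2.93 ± 0.47 (limma adjusted p = 0.0264). Polr1a, the catalytic subunit of polymerase I, had 0.112 and 0.0592 in the wild-type libraries, against 0.364 and 0.334 in the knockout ones, for a change of 2.10 ± 0.44 (limma adjusted p = 0.0397). Among subunits particular to polymerase II, Polr2j had 0.134 and 0.129 in the wild-type libraries, against 0.525 and 0.570 in the knockout ones. None of these groups overlapped, and the change of Polr2j was 2.06 ± 0.31 (limma adjusted p = 0.0247). Polr2a and Polr2b, the large subunits of polymerase II, had changes below 0. Polr2a had 0.0660 and 0.122 in the wild-type libraries, against 0.0373 and 0.0487 in the knockout ones, for a change of -1.07 ± 0.45 that missed the test (limma adjusted p = 0.145) and passed it with the block (0.0473). Polr2b had a change of -0.30 ± 0.39, with overlapping groups.

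Of the TAFs, 3 of 9 tested rose, beside 20.5% of all genes, with a median change of 1.73 over the 9. Taf11, which pairs with Taf13 in TFIID, had rates of 0.171 and 0.167 in the wild-type libraries, against 0.963 and 0.953 in the knockout ones. Its labelling times were nearly equal within each genotype, as were its synthesis rates. The RNA level behind each pair is 1 value per genotype (explained below). The change of 2.50 ± 0.31 had the smallest adjusted p of the members (0.0235, limma). Taf3, a TFIID subunit that reads histone methylation, had 0.195 and 0.176 in the wild-type libraries, against 0.730 and 0.717 in the knockout ones (change 1.96 ± 0.32, limma adjusted p = 0.0264). Taf1c, an SL1 subunit, had 0.126 and 0.105 against 0.400 and 0.361, a change of 1.73 ± 0.33 (limma adjusted p = 0.0330). In all of these the groups were well apart. Taf13 had a larger change, 2.92 ± 0.74, but its wild-type rates differed between times (0.0197 and 0.0783), and it missed the test (limma adjusted p = 0.0558; 0.0226 with the block). Taf13 also passed in the authors' deposited table (0.0497) and with the filter, the pseudocount or the eBayes trend. Taf8 had a change of 2.07 ± 0.81 (limma adjusted p = 0.127; 0.0195 with the block). Taf15 (0.93), Taf5 (0.76), Taf6 (-0.22) and Taf5l (-0.86) passed neither.

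Of TFIIIA and TFIIIC, 1 of 6 tested rose, beside 20.5% of all genes. Gtf3c1, the largest TFIIIC subunit, had rates of 0.0467 and 0.0263 in the wild-type libraries, against 0.224 and 0.177 in the knockout ones, without overlap. Its change was 2.50 ± 0.43 (limma adjusted p = 0.0286). Gtf3a, which is TFIIIA, the factor specific to 5S genes, had 0.196 and 0.0708 against 0.601 and 0.373, a change of 2.01 ± 0.63 that missed the test (limma adjusted p = 0.0840) and passed it with the block (0.0179) and in the authors' deposited table (0.0465). With recomputed knockout rates (explained below) the change of Gtf3a was -0.04. Gtf3c5 had a change of 1.09 (limma adjusted p = 0.0751; 0.0401 with the block). Gtf3c2 (-0.09), Gtf3c4 (-0.30) and Gtf3c6 (-0.79) were below 0 and passed neither.

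A grouping by polymerase was made after these values were seen and is given as a description only. Genes of the polymerase I and III machinery, shared subunits included, accounted for 8 calls among 17 tested (47.1%), with a median change of 1.73, and genes used by polymerase II alone for 3 calls among 40 (7.50%), with a median of 0.63. Over all genes 23.1% were called and the median was 0.65. With the block the calls were 10 of 17 (58.8%) and 12 of 40 (30%), beside 48% of all genes, and median-centring left 0 calls in both groups, beside 1.61% of all genes. After median-centring the medians of these groups were 0.87 and -0.23, beside -0.20 for all genes, and with recomputed knockout rates 0.29 and 0.11, beside 0.06.

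Of 20 Mediator subunits tested, 0 were called by limma, with 3 at an unadjusted p under 0.05. Changes were positive in 14, and the median was 0.47. Over all genes 23.1% were called and 43.1% had an unadjusted p under 0.05. Changes were positive in 3891 of the 5716, with a median of 0.65. With the block 4 were higher, Med24 (1.67), Med13l (1.20), Med27 (1.18) and Med9 (1.12), and 1 lower, Med7. The same fit called 38.2% of all genes higher and 9.76% lower. Med7 had 0.486 and 0.606 in the wild-type libraries, against 0.136 and 0.220 in the knockout ones. Its knockout rates were the lower in both pairs, with a change of -1.65 ± 0.41 (limma adjusted p = 0.0525; 0.0192 with the block). Med7 was also called after quantile normalization and with the filter, the pseudocount or the eBayes trend, and Med9 with the pseudocount. In the authors' deposited table Med24 (adjusted p = 0.0195) and Med7 (0.0263) passed. The nuclear-receptor-binding subunit Med1 had 0.0951 and 0.135 in the wild-type libraries, against 0.179 and 0.220 in the knockout ones, for a change of 0.81 ± 0.37 (limma adjusted p = 0.169). The groups did not overlap in Med1, and its change lay close to the median of all genes. The kinase-module paralogs differed in value, with 0.24 ± 0.76 for Med13 and 1.20 ± 0.53 for Med13l; Med12 was at 0.32 ± 0.86. Tail subunits spread from -2.32 ± 1.27 (Med15) to 1.67 ± 0.67 (Med24). The Med15 value came mainly from the knockout 60 min library, with changes of -0.39 at 20 min and -4.25 at 60 min. The authors' deposited table gave -0.63 for Med15. With recomputed knockout rates (explained below) Med15 was at 0.18 and Med24 at -0.23.

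Of 8 general factors of polymerase II tested, 0 were called by limma (1 at an unadjusted p under 0.05), and their median change was 0.19. Beside them, 23.1% of all genes were called and 43.1% had an unadjusted p under 0.05, with a median of 0.65. Gtf2h2, a core TFIIH subunit, had the largest value, with 0.212 and 0.205 in the wild-type libraries, against 0.733 and 0.383 in the knockout ones (change 1.35 ± 0.45, limma adjusted p = 0.0923; 0.0414 with the block). Gtf2b, which is TFIIB, had 0.248 and 0.325 against 0.239 and 0.256, a change of -0.20 ± 0.34 with overlapping groups. Gtf2h5 (0.77) and Gtf2h1 (0.70) were also higher at both times, Gtf2a1 (-0.21) and Gtf2b lower at both, and none of these was called. Centred on library medians, the Mediator median was -0.39, that of the general factors -0.67 and that of TFIIIA and TFIIIC -0.36, while polymerase subunits were at 0.58 and TAFs at 0.87, beside -0.20 for all genes.

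**Figure D2:**
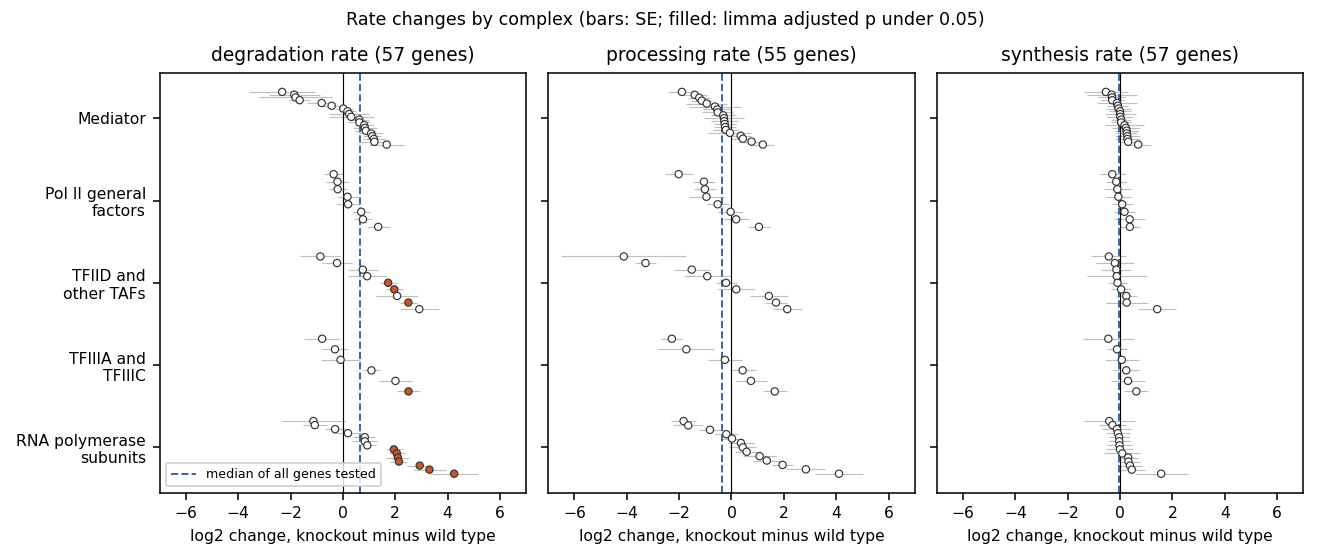
Log2 change, knockout minus wild type, of every tested member (points, with SE bars) by complex, for degradation, processing and synthesis rates; the dashed line is the median of all genes tested. Filled points pass limma at an adjusted p under 0.05: 11 for degradation, 0 for processing and 0 for synthesis.

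The deposited knockout rates carried a second quantity, the RNA level. In wild type, synthesis rate divided by degradation rate gave one value at 20 and 60 min, within 0.001 log2 units in 55 of 57 members, so 1 spliced RNA level underlay both libraries. In the knockout, the deposited degradation rate behaved as (synthesis rate - (knockout level - wild-type level)) / knockout level, so that a lower level raised the rate. No label or header states this relation, which was read from the values. Solved for the knockout level separately at 20 and 60 min, it gave values that differed by a median of 0.00083 log2 units in the members (0.0766 at most). The slope between both knockout libraries, which does not use the wild-type level, gave a level within 0.1 log2 units of the first in 42 of 46 members. The exceptions were Polr3c, Polr1a, Polr2l and Med12. For Polr1a the slope gave 9.44, against 8.46 and 8.44 from the knockout libraries and 10.7 in wild type. With a single level per genotype these levels have no replicate, and no test was made of them. The SE and p-values of the degradation rates therefore hold no spread in RNA level. Close agreement of a gene's labelling times reflects its synthesis rates and is no replicate of its level.

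By these implied levels, 40 of 57 members had less spliced RNA in the knockout (70.2%; 67.6% of all genes), with a median log2 change of -0.09 beside -0.08 for all genes. Polr3c was lowest, at 37.3% of wild type, with a level of 1.22 in wild type and 0.460 and 0.452 from the knockout libraries. The slope gave a higher knockout level for Polr3c, 0.520. Taf11 stood at 60.0% (6.21 against 3.72 from both), Polr3gl at 68.0%, Taf3 at 68.1%, Polr3d at 70.5%, Polr2j at 73.0% and Polr2e at 77.1%. The remaining called genes were at 79.2% (Polr1a), 82.3% (Taf1c), 86.4% (Polr3a) and 86.8% (Gtf3c1), so all 11 were below wild type. Every member with a degradation change below 0 had a level above wild type, among them Med7 at 128.5%, Med4 at 114.6% and Polr2a at 104.0%. Across the 57 members, the deposited rate change and the level change had a Spearman rho of -0.927 (-0.925 across all 5704 genes); the pair is built from the same numbers, and genes are not independent replicates.

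When the degradation rate in the knockout was recomputed as synthesis rate over implied level, as in wild type, 0 of 57 members and 0 of 5704 genes passed limma; 97 of all genes but 0 members had an unadjusted p under 0.05. For the members, the median was then 0.18, against 0.06 for all genes. Of the 11 called genes, Polr3gl kept the largest value, 2.12, followed by Polr3c (1.5), Polr2e (0.82) and Taf11 (0.78), and Polr1a had the smallest, 0.05. Polr2a was at -0.14 and Med7 at -0.45. The rises reported above are therefore those of the deposited rates, and in bulk RNA less RNA per cell and fewer cells that hold it cannot be told apart.

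**Figure D3:**
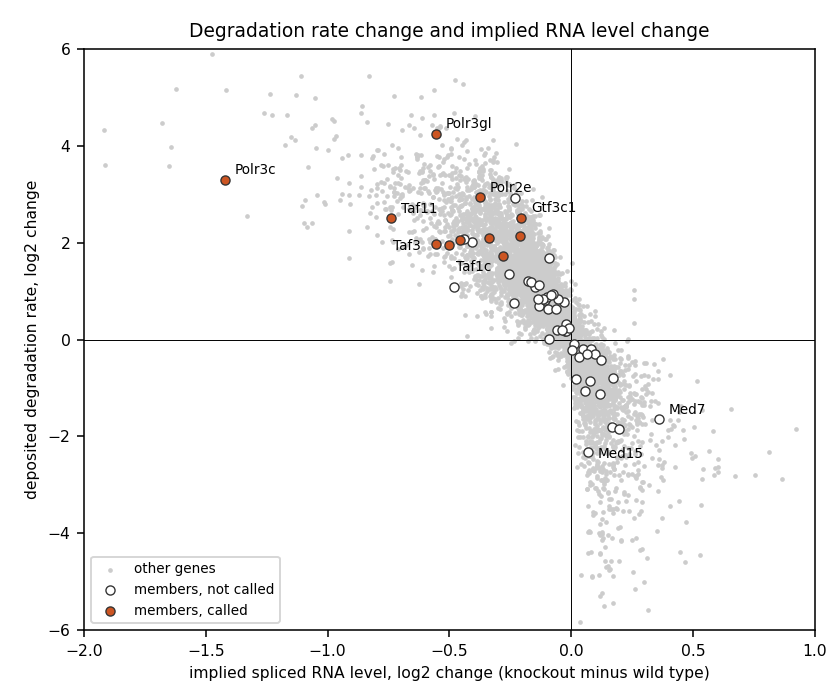
Deposited degradation rate change (y axis, log2, knockout minus wild type) against the implied spliced RNA level change (x axis, log2); grey points are other genes and circles the 57 members, filled where called. The 11 called members lie at level changes below 0, Polr3c farthest at -1.42; 29 genes, none of them members, fall outside the axes.

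For processing rate, 0 of 55 members tested were called by limma (background 0%), with 18 at an unadjusted p under 0.05 (32.7%; 15.4% of all 5082 genes). The median change was -0.24, beside -0.36 for all genes, and became 0.11 after median-centring and 0.13 after quantile normalization, beside -0.01 for all genes in both, so its sign rests on the scaling. Both knockout rates lay above both wild-type rates in 13 members (23.6%; background 11.5%) and below both in 16 (29.1%; background 35.1%). By labelling time, 19 were higher at both (background 20.8%) and 26 lower at both (background 58.3%). With labelling time as a block, 23 members were called, 9 higher and 14 lower (background 25.6%, 6.26% higher and 19.3% lower), and with block and centring 13, 8 higher and 5 lower (background 13.5%, 7.14% higher and 6.4% lower). The authors' deposited table called 0 of 59 members. Without single libraries the median change of all genes ran from -0.40 to -0.29.

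The largest positive change was that of Polr3gl, whose processing rate was 1.21 and 0.213 in the wild-type libraries, against 12.8 and 5.98 in the knockout ones. The groups did not overlap, and the log2 change was 4.11 ± 0.92 (limma adjusted p = 0.156; 0.00865 with the block). Polr2l, the small subunit common to all nuclear RNA polymerases, had 2.33 and 0.902 against 17.1 and 6.30, a change of 2.84 ± 0.72 (limma adjusted p = 0.177; 0.00798 with the block). Taf6, a histone-fold subunit of TFIID, had 4.50 and 1.91 against 14.9 and 11.01, a change of 2.13 ± 0.56 (limma adjusted p = 0.188; 0.0132 with the block). In each, both knockout values exceeded both wild-type values, while the labelling times differed within a genotype.

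Taf11 had a lower processing rate in the knockout, 2.22 and 2.12 against 21.4 and 20.9 in wild type, a change of -3.28 ± 0.40 (limma adjusted p = 0.10; 0.00752 with the block). Its labelling times agreed closely in both genotypes. Gtf3c5, a TFIIIC subunit, had 26.6 and 31.8 in the wild-type libraries, against 6.08 and 5.88 in the knockout ones, for a change of -2.28 ± 0.40 (limma adjusted p = 0.114; 0.00953 with the block). Polr2a had 35.5 and 65.2 in the wild-type libraries, against 12.5 and 14.6 in the knockout ones, for a change of -1.83 ± 0.48 (limma adjusted p = 0.188; 0.0155 with the block). Taf8, another TFIID subunit, had the most negative change, -4.11 ± 2.39, from 2.52 and 9.87 to 0.0209 and 3.96. That value came from the knockout 20 min library, the groups overlapped, and the authors' deposited table gave 0.09. By complex, polymerase subunits had a median of 0.43 (4 higher and 2 lower with the block), Mediator -0.29 (1 and 5), TAFs -0.21 (2 and 3), TFIIIA and TFIIIC 0.09 (1 and 2) and the general factors -0.74 (1 and 2). After centring, the medians of Mediator (0.06) and the TAFs (0.14) were above 0.

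**Figure D4:**
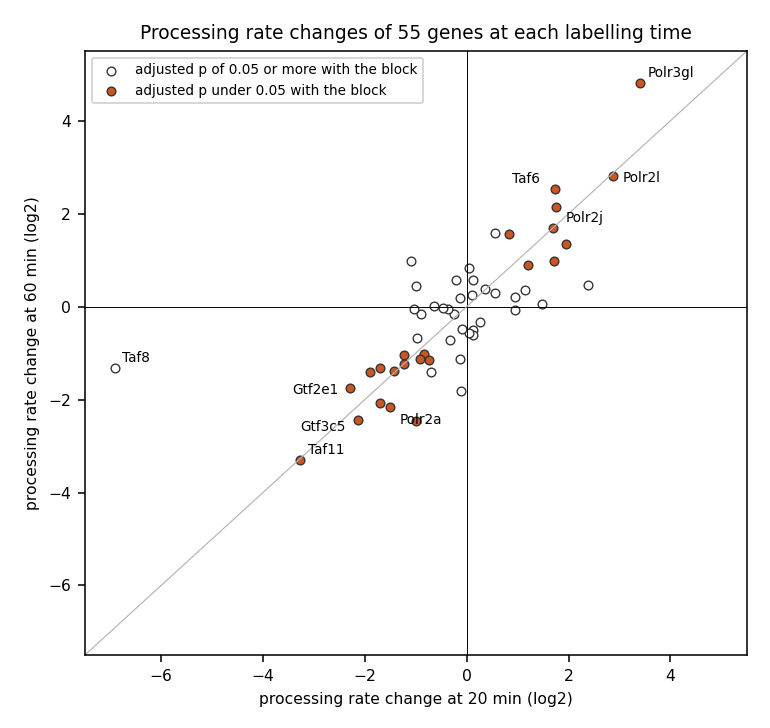
Processing rate change of the 55 tested members at 20 min (x axis, log2, knockout minus wild type) and at 60 min (y axis); the grey diagonal marks equal change. Filled points are the 23 members called by limma with the labelling time block, which lie in the quadrants of equal sign; Taf8 is far from the diagonal.

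The processing rates carried an implied level of unspliced RNA in the same way, 1 per genotype, so their SE and p-values hold no spread in that level. Some values of its knockout-to-wild-type ratio recurred. Of the 55 members, 16 shared their ratio with another member: Gtf3c2, Med12, Polr2i and Taf5 were all at 0.796, Polr2j, Polr3gl and Taf6 all at 0.265, and Gtf2h1, Gtf3a and Med7 all at 1.99. Their ratios took 45 distinct values in all. Across all 5076 genes, 326 were at 0.796 (within 0.001 log2 units), against 0 at a point 0.02 log2 units higher, and 270 were at 1.59, which is 2 times that ratio. Taf11 was at 7.16, which is 9 times it, and Polr2a at 3.18, 4 times it. What the steps stand for was not tested. Recomputed over the implied unspliced level, processing rates gave 0 calls by limma among the members, with 13 at an unadjusted p under 0.05.

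**Figure D5:**
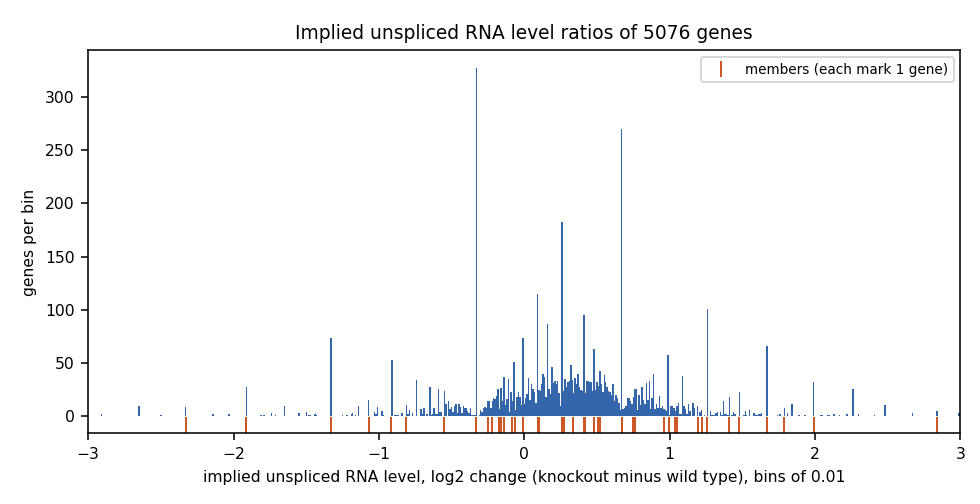
Number of genes (y axis) by implied unspliced RNA level change (x axis, log2, knockout minus wild type, bins of 0.01) for 5076 genes; orange ticks mark the 55 members. Tall single bins, such as the one at a log2 ratio of -0.33 where 326 genes share a value, stand on a low continuous spread, and member ticks fall on both.

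Synthesis rates showed no change that passed. Of 57 members tested, 0 were called by limma (background 0%), 0 had an unadjusted p under 0.05 (0.311% of all 5794 genes), and the median change was 0.01, with medians between -0.10 (TAFs) and 0.15 (TFIIIA and TFIIIC) by complex. With the block 0 were called and 2 had an unadjusted p under 0.05. Both knockout rates lay above both wild-type rates in 6 members (10.5%; background 8.92%) and below both in 0 (background 9.2%). Polr3gl had the largest change in value, 1.57, with 0.215 and 0.0378 in the wild-type libraries, against 0.472 and 0.151 in the knockout ones, and its groups overlapped. Taf13 followed, with 0.119 and 0.471 against 0.617 and 0.647 and a change of 1.42 ± 0.73 (limma adjusted p = 1.00). Gtf3c6, a TFIIIC subunit, had a change of 0.62. The most negative changes shared by both times were those of Taf5l (-0.43), Med25 (-0.31) and Polr1a (-0.29), each with overlapping groups. Among the 11 genes called for degradation rate, synthesis changes ran from -0.29 (Polr1a) to 1.57 (Polr3gl). Taf11 had synthesis rates of 1.06 and 1.04 in the wild-type libraries, against 1.10 and 1.06 in the knockout ones, and Polr3c had 0.513 and 0.171 against 0.441 and 0.222.

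The labelling times themselves differed for single members. In wild type the synthesis rate at 60 min relative to 20 min ranged from -2.51 log2 units (Polr3gl) to 1.99 (Taf13). Med13, which links the kinase to core Mediator, was higher at 60 min in both genotypes, by 1.66 in wild type and 1.25 in the knockout, and its paralog Med13l by 1.20 and 0.80. Polr3c was lower at 60 min in both, at -1.59 and -0.99. The sign was shared by both genotypes in 45 of 57 members. Across those 57 genes the Spearman rho between genotypes was 0.719 (0.740 across all genes). In wild type, across 81 members, rho was 0.00 with gene length and -0.29 with transcript GC content; these are descriptions across genes that share libraries.

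Other transcription genes outside the naming rule were read from the same fits. Of 65 listed, 59 were among the genes of the table and 34 were tested for degradation rate, of which 5 rose and 1 fell, with a median change of 0.11. Over all genes 20.5% were called higher and 2.57% lower, with a median of 0.65. Those that rose were Nelfe (2.85), a subunit of the pausing factor NELF, Polrmt (2.60), the mitochondrial RNA polymerase, Rprd1a (2.30), a binder of the polymerase II tail, Snapc3 (2.06), of the complex that serves small nuclear RNA genes, and Brf2 (1.69), a TFIIIB subunit. Tfam, the mitochondrial transcription factor, fell by 3.68 log2 units (limma adjusted p = 0.0378), from 0.387 and 0.456 to 0.0162 and 0.0660. By implied level, Snapc3 was at 60.1% of wild type, Brf2 at 71.0% and Tfam at 129.3%. Of these genes 0 of 30 were called for processing rate and 0 of 34 for synthesis rate by limma. With the block, 8 were higher and 6 lower for degradation rate, and 3 higher and 7 lower for processing rate. The same fit called 38.2% of all genes higher and 9.76% lower for degradation rate, and 6.26% higher and 19.3% lower for processing rate.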

How the data were processed

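Rates came from 4 labelled libraries, 1 per genotype and labelling time (20 and 60 min). Per the submitters' processing notes, cutadapt, Bowtie2, TopHat2, HISAT2 and limma and the builds mm10, dm6 and sacCer3 were used; versions, roles and rate units are not given in the sources used here. Synthesis, processing and degradation rates are the authors' deposited values on a linear scale. The authors' deposited tables of differences give a log2 change, p-value and adjusted p-value per gene, per the file headers; the authors' deposited score columns, as named in those headers, were not used.

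Genes with a rate above 0 in all 4 libraries were taken to log2 without a pseudocount and compared with limma 3.58.1 in R 4.3.3 (lmFit, eBayes without trend, two-sided, Benjamini-Hochberg over all genes tested, threshold 0.05). The labelling times stood as the 2 replicates of a genotype. They pair libraries by the labels, and across genes the 60 against 20 min synthesis differences correlated between genotypes (Spearman rho 0.740), so values with a replicate block are printed where they change a call. The script was tested on simulated data. Alternatives were the block, centring on library medians, both together, quantile normalization, a filter at the 25th percentile, a pseudocount at the 10th percentile, eBayes with a trend, the tables of differences and dropping each library in turn. Recomputed knockout rates were added after seeing the data. Gene models came from GENCODE M21 (GRCm38) and promoters from RefSeq. All per-sample columns were used.

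Named genes are members called for degradation rate, for the other rates the 3 most positive and 3 most negative changes among members whose 20 and 60 min changes had one sign, the 3 highest and lowest in wild type, and a fixed set of large or regulatory subunits; other members are named to account for a complex. The members, lists and tests were chosen with earlier results of these data known. Read depth is unknown, so no counting interval is given. The values of 1 member are not reported here singly, and it is counted in the group totals.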

Additional observations from a re-analysis of the deposited data

Results flagged for a closer look

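The values below had opposite signs at the 2 labelling times, those of Polr2b at 20 min and of Mediator synthesis at both times being close to 0, and none of these differences was tested. The degradation rate change of Polr2b was -0.60 at 60 min and 0.01 at 20 min, and that of Med12 was 1.40 at 60 min and -0.76 at 20 min. The median processing change of TFIIIA and TFIIIC was -0.16 at 60 min and 0.34 at 20 min. Median synthesis changes at 60 and 20 min were -0.00402 and 0.000171 for Mediator, 0.20 and -0.14 for the TAFs, and -0.21 and 0.39 for TFIIIA and TFIIIC, with every group's members uncalled.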

How the results depend on the processing

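With 11 members called for degradation rate, the count was 22 with labelling time as a replicate block, 0 after centring, 3 after quantile normalization (Gtf3c1, Taf11 and, lower, Med7) and 0 with recomputed knockout rates. Leaving out 1 library gave 0 to 10. For processing rate, 0 became 23 with the block and 13 with block and centring. Synthesis rate stayed at 0 under every alternative that kept all 4 libraries. All genes called for degradation rate numbered 1321, and 2741 with the block, 92 centred, 596 after quantile normalization, 2070 with block and centring, 2245 in the authors' table and 0 recomputed.

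Signs turned in uncalled genes, and the cause was not tested. With recomputed knockout rates, 42 of 57 members kept the sign of their deposited degradation change. Among those that turned were Med24 (-0.23), Gtf3a (-0.04), Med15 (0.18) and Med4 (0.50). For degradation rate, Med1 became -0.0443 centred (with or without the block) and -0.0165 after quantile normalization; Med12 -0.539 centred and -0.522 recomputed; Med13 -0.618 centred and -0.470 after quantile normalization; Polr2b 0.253 and Gtf2b 0.0870 recomputed. Without single libraries, Polr2b ran from -0.642 to 0.0455, Med12 from -0.860 to 1.5 and Med13 from -0.594 to 1.07, and synthesis changes from -1.12 to 0.258 (Taf5l), -0.770 to 0.149 (Med25) and -0.758 to 0.176 (Polr1a). Taf8 processing was 0.0945 in the authors' table. A library left alone in its genotype is assumed to vary like the other pair. Depth is unknown, and there were 2 labelled libraries per genotype, whose rates rest on 1 implied RNA level.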
